A study of Mus musculus with 6 samples.

Results

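Interferon-stimulated genes were examined in primary chondrocytes of Slc39a13-KO and wild-type mice. The 34 genes were taken by name, at a time when earlier results of these data were known. They cover 22 genes known mainly as targets of type I interferon and 10 known mainly as targets of interferon-gamma (IFN-γ). The other 2 are the chains of the IFN-γ receptor. Of all 34 genes, 32 had at least 1 probe set that the array annotation gives to a single gene, out of 18193 such genes in all. Together they had 52 of the 45101 probe sets on the array. Isg15, a ubiquitin-like protein, had only a probe set shared by several genes, and Ifi44 had no matched probe set, so neither gave a value. Where a gene had several probe sets, the one with the highest mean signal over the 6 arrays stood for it.

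The series compared 3 arrays of Slc39a13-KO chondrocytes with 3 arrays of wild-type chondrocytes to ask how loss of the zinc transporter Slc39a13 changes gene expression in connective tissue cells. The KO mice were homozygous for an allele in which several exons of Slc39a13 had been replaced by a neomycin resistance cassette in embryonic stem cells. The cells of both groups came from rib cages of newborn mice, were freed with collagenase and were cultured without a described sort. No interferon treatment is described for either group. The sources do not say whether arrays of a group came from separate cultures or animals, so every p-value here rests on array-to-array spread that could be technical.

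Interferons are secreted proteins that cells release on contact with a virus or other signs of infection. Type I interferons bind a receptor of the chains Ifnar1 and Ifnar2, and the kinases Jak1 and Tyk2 then activate transcription factors, Stat2 and Irf9 among them, that bind the interferon-stimulated response element (ISRE) in promoters. IFN-γ, made mainly by T and NK cells, binds Ifngr1 and Ifngr2, and the kinases Jak1 and Jak2 then signal to promoters with a gamma-activated site (GAS). The targets include antiviral proteins, GTPases that act on intracellular pathogens, and the machinery that presents peptides on major histocompatibility complex (MHC) class I. Many genes respond to both kinds of interferon, and of the genes here Cxcl10, Bst2 and Parp14 are well known for it. Many are also expressed at a low level in unstimulated cells.

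Promoter sequences show which members carry the letters of these elements. RefSeq promoter sequences (GRCm38.p6) were found for 27 of the 34 genes, and the 250 bases before the transcription start were searched. The ISRE was searched as a pair of TTTC half-sites separated by any 2 bases, or of GAAA half-sites for the other strand, and the GAS as TTCNNNGAA, which is its own reverse complement. An ISRE match was found in 13 of 27 members (48.1%), against 3.46% of all 27025 genes with a promoter and 2.98% of all 32851 promoters. The share was 6 of 9 IFN-γ genes (66.7%), 7 of 16 type I genes (43.8%) and neither receptor chain. A GAS match was found in 5 of 27 members (18.5%), against 8.13% of all genes with a promoter and 7.02% of all promoters. Mx1, Mx2, Dhx58, Usp18, Ifi27, Parp14 and Iigp1 were not matched to a promoter. The following 100-base stretches are printed 5′ to 3′ in the direction of transcription, with ISRE and GAS matches in capitals. The first 5 belong to the members with a match whose KO signals all lay below the wild-type signals. Ifit3 and B2m are shown because they carry the same letters while their KO and wild-type signals overlapped. For B2m the overlap holds for its brightest probe set, and on its other probe set the KO signals all lay below.
Gbp2, chr3:142620559-142620658, plus strand: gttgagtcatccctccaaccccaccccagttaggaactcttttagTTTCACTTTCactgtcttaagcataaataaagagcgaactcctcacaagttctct
Igtp, chr11:58199456-58199555, plus strand: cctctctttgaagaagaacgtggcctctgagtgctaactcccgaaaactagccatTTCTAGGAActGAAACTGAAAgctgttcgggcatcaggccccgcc
Irgm1, chr11:48871421-48871520, minus strand: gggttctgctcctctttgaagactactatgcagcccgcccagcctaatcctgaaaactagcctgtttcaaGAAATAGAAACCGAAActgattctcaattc
Cxcl10, chr5:92349040-92349139, minus strand: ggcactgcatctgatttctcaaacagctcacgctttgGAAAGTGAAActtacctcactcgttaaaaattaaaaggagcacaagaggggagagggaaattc
Bst2, chr8:71537548-71537647, minus strand: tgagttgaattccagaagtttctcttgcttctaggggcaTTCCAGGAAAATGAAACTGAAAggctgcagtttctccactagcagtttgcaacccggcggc
Ifit3, chr19:34583345-34583444, plus strand: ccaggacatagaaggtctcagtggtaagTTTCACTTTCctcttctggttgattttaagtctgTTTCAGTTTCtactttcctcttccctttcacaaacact
B2m, chr2:122147503-122147602, plus strand: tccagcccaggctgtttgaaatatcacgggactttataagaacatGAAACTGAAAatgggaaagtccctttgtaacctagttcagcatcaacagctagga

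In Gbp2 the ISRE match ends 50 bases before the start, and no GAS match was found in its window. Igtp carries a GAS match a few bases before an ISRE match. Irgm1 and Bst2 each carry a pair of ISRE matches that overlap, and in Bst2 a GAS match overlaps the first of them. Ifit3 carries a pair of ISRE matches that do not overlap. An ISRE match was found in 5 of the 8 members whose KO signals lay below all wild-type signals (62.5%) and in 7 of the other 17 measured members with a promoter (41.2%). These are counts of letters in a window and do not show that a factor binds there. Tap1 and its neighbour Psmb9 are transcribed in opposite directions, and their promoter entries share 275 bases, in which neither element was found before either start.

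Signals are on the linear scale of the deposited values, and differences are given as KO minus wild type on the log2 scale after adding 7.96 to each signal. A gene was tested where its mean log2 value was at or above 5.80, which equals a signal of 47.9, and 12715 genes in all passed. The median signal over all probe sets was between 82.0 and 108 on the KO arrays and between 80.7 and 88.4 on the wild-type arrays. KO replicate 1 stood apart, since its log2 values correlated at 0.946 to 0.956 with the other arrays, which correlated at 0.964 to 0.983 among themselves. Slc39a13 itself had signals of 100, 196 and 165 on the KO arrays and 901, 1081 and 991 on the wild-type arrays. The summed signal of 7 chondrocyte markers lay between 86318 and 122829 on the KO arrays and between 61107 and 74036 on the wild-type arrays. Col2a1 and Col9a1 make up most of this sum. Of the 7, 3 rose, while Hapln1, Sox9 and Matn1 overlapped between the groups, and Matn1 differed by -0.40. The summed signal of 6 mesothelial markers lay between 251 and 514 on the KO arrays and between 2792 and 5176 on the wild-type arrays, and 5 of the 6 fell.

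Of the 32 measured members, 24 were tested, where 69.9% of all measured genes were. Under the filter were 6 type I genes (Ifit1, Mx1, Mx2, Oasl2, Usp18 and Parp14) and 2 IFN-γ genes (Gbp3 and Psmb9). Gbp2, Cxcl10 and Psmb8 passed although their KO means lay under the filter level, so the sizes of their differences depend on the value added before the log. No member rose in KO chondrocytes and 2 fell, Gbp2 and Ifngr2, at an adjusted p under 0.05 (limma, Benjamini-Hochberg over all tested genes). Among all 12715 genes 4.64% rose and 4.68% fell, so 2 of 24 is close to the background and is read here as a result on 2 genes and not on the group. At an unadjusted p under 0.05, 1 member was higher (Trim25) and 7 were lower, where 12.8% and 12.4% of all genes were. The methods' t-test gave 0 higher and 5 lower members at that level, where 1346 of all 12715 genes were higher and 1275 lower. No member passed that test after Benjamini-Hochberg adjustment. Of all calls 49.8% were higher in KO cells, and 31.5% when each array was centred on its median, which moves the background against which the members are read.

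The classes are described by the position of their arrays, with no test between the classes. In 8 of 24 tested members all KO signals lay below all wild-type signals, against 14.9% of all tested genes, and in 0 of 24 they lay above, against 16.0% of all tested genes. The 8 were 5 of 8 tested IFN-γ genes (Gbp2, Igtp, Irgm1, Cxcl10 and Tap1), 2 of 14 tested type I genes (Bst2 and Xaf1) and 1 of the 2 receptor chains (Ifngr2). Gbp2 and Cxcl10 reached the filter level only through their wild-type signals, and Gbp3, whose KO signals all lay above the wild-type signals, was taken out by the same filter, so these counts over tested members depend on it. Over all measured members the difference was negative in 8 of 10 IFN-γ genes, 13 of 20 type I genes and both receptor chains, against 46.7% of all measured genes. The median difference was -0.51 for the IFN-γ genes and -0.12 for the type I genes, beside 0.03 for all measured genes. Without Cxcl10, Bst2 and Parp14 these medians were -0.44 for the IFN-γ genes and -0.11 for the type I genes. Genes left in either class may also respond to both interferons, so the medians do not separate the 2 pathways. Leaving out any 1 array other than KO replicate 1 gave 8 or 9 members of 24 or 25 with the KO signals below. In these refits 17.8% to 21.6% of all tested genes lay below. In each of the 6 refits 1 or 2 members had the KO signals above, a direction not counted over all genes there. With KO replicate 1 left out, the members below numbered 13 of 23 (7 IFN-γ and 5 type I genes), where 20.9% of all tested genes did not overlap in that direction, and the medians were -0.58 for the IFN-γ genes and -0.36 for the type I genes. Without KO replicate 3 the type I median was 0.02.

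**Figure D1:**
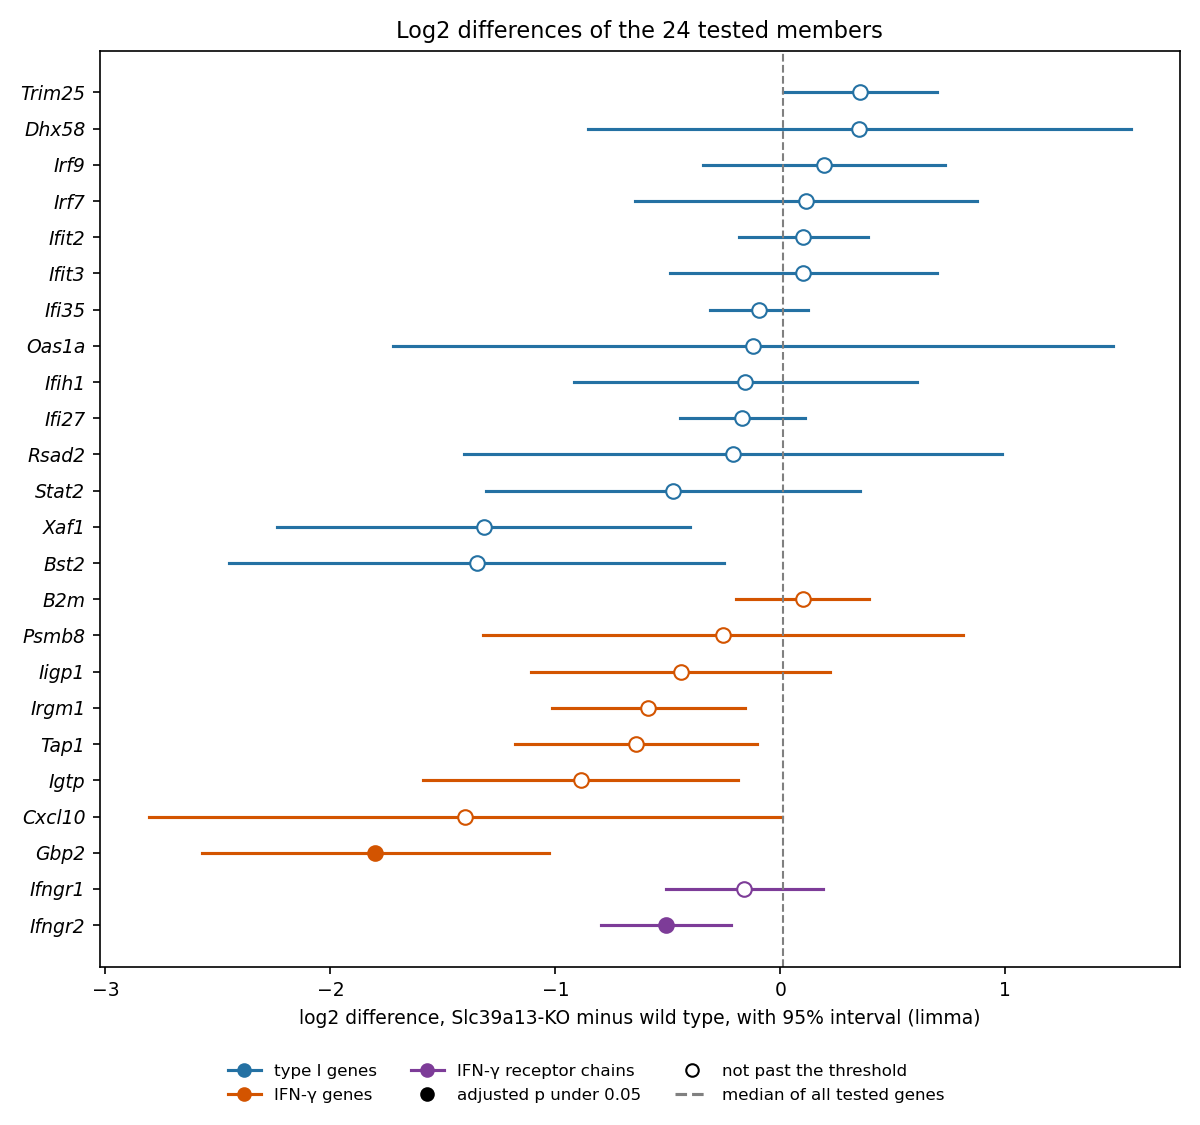
Log2 differences (KO minus wild type, horizontal axis) of the 24 tested members with 95% limma intervals, by class, largest at the top of each class. Filled points are Gbp2 (-1.80) and Ifngr2 (-0.51), which passed an adjusted p of 0.05, and the dashed line marks the median of all tested genes (0.01).

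Both chains of the IFN-γ receptor were well above the filter level. Ifngr2, the chain that brings Jak2 to the receptor, had signals of 295, 329 and 347 on the KO arrays and 460, 466 and 462 on the wild-type arrays. The wild-type signals were close together and every KO signal lay below them. Ifngr2 fell by 0.51 on the log2 scale (SE 0.13, adjusted p = 0.0363, limma). Its other probe set read 196, 241 and 331 in KO cells and 364, 387 and 268 in wild-type cells, where the groups overlapped and the difference was -0.41 (adjusted p = 0.298 over all probe sets). Ifngr1, the ligand-binding chain, had signals of 535, 735 and 831 in KO cells and 843, 744 and 729 in wild-type cells. Its groups overlapped, and the difference was -0.16 with a 95% interval of -0.51 to 0.19. The call on Ifngr2 was lost in most of the refits without 1 array, with KO replicate 3 the only array whose omission kept it (adjusted p = 0.0339). Without any other array the adjusted p lay between 0.0553 (KO replicate 1) and 0.147 (wild-type replicate 2), while the difference stayed between -0.52 and -0.44.

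Among the IFN-γ targets, 1 of 8 tested genes fell, where 4.68% of all tested genes did. It is a GTPase of the host defense against intracellular pathogens. Gbp2, a guanylate-binding protein that gathers on pathogen vacuoles, had signals of 64.1, 44.2 and 30.6 on the KO arrays and 174, 150 and 205 on the wild-type arrays. The lowest wild-type signal was above the highest KO signal by more than the range of the KO signals. Gbp2 fell by 1.80 on the log2 scale (SE 0.35, 95% interval -2.57 to -1.03, adjusted p = 0.0112, limma). With other values added before the log, the difference was -1.93 and -1.48, and the call remained. Leaving out any of the 3 wild-type arrays moved the adjusted p to 0.0622, 0.0535 and 0.0763 (replicates 1, 2 and 3), while the difference stayed between -1.91 and -1.69. The other probe set of Gbp2, which may cross-hybridize with related genes, gave signals of 93.0, 17.7 and 36.9 in KO cells and 118, 84.0 and 89.8 in wild-type cells. There KO replicate 1 lay inside the wild-type range, and the difference was -1.09 (adjusted p = 0.242 over all probe sets).

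The immunity-related GTPases Igtp and Irgm1 lay lower in KO cells without passing the test. Igtp, an effector at pathogen vacuoles, had signals of 86.5, 53.3 and 91.2 in KO cells and 125, 138 and 180 in wild-type cells. The groups did not overlap, and the difference was -0.89 (SE 0.31, adjusted p = 0.110). Irgm1, a regulator of the effector GTPases, had signals of 316, 209 and 215 in KO cells and 340, 420 and 348 in wild-type cells. KO replicate 1 was near the lowest wild-type array, and the difference was -0.59 (SE 0.19, adjusted p = 0.0870). Without KO replicate 1 it was -0.77 and passed (adjusted p = 0.0173). Iigp1, another effector GTPase, overlapped between the groups, with a difference of -0.44 (adjusted p = 0.397).

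Gbp3, a further guanylate-binding protein, was the only measured member in which the KO signals all lay above the wild-type signals. They were 58.2, 68.3 and 61.4 in KO cells and 26.5, 32.2 and 44.9 in wild-type cells, near or under the filter level on every array. The difference of 0.75 was tested only with the filter removed, where its adjusted p was 0.414. Gbp2 and Gbp3 lay on opposite sides of the wild-type signals, and the Gbp3 promoter carries a pair of overlapping ISRE matches.

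Cxcl10, a chemokine that attracts activated T cells, had signals of 7.73, 67.6 and 84.7 in KO cells and 90.8, 154 and 118 in wild-type cells. The groups did not overlap, but KO replicate 3 and wild-type replicate 1 were nearly equal and KO replicate 1 was far below the rest. The difference was -1.40 (SE 0.63, adjusted p = 0.200), and -0.59 without KO replicate 1.

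The antigen presentation members gave a mixed picture. Tap1, a subunit of the pump that carries peptides into the endoplasmic reticulum, had signals of 125, 98.8 and 94.4 in KO cells and 179, 172 and 155 in wild-type cells. The groups did not overlap and each was tight, and the difference was -0.64 (SE 0.24, adjusted p = 0.130). Psmb8 and Psmb9, catalytic subunits of the immunoproteasome, were dim and overlapped between the groups, with differences of -0.26 and -0.02. B2m, the light chain of MHC class I, was the brightest IFN-γ member, with signals of 13543, 10190 and 8942 in KO cells and 10551, 9987 and 9538 in wild-type cells. Its groups overlapped, with KO replicate 1 above and KO replicate 2 within the wild-type signals, and the difference was 0.10 (95% interval -0.20 to 0.40). Its other probe set, close to it in brightness, had signals of 9887, 9323 and 8625 in KO cells and 10503, 12662 and 11671 in wild-type cells. Those groups did not overlap, and the difference was -0.32 (adjusted p = 0.0678 over all probe sets). The direction for B2m therefore depends on which of the probe sets stands for the gene, and it was -0.32 under quantile normalization (adjusted p = 0.0409) and -0.37 without KO replicate 1 (adjusted p = 0.0335), where the other probe set is the brighter.

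**Figure D2:**
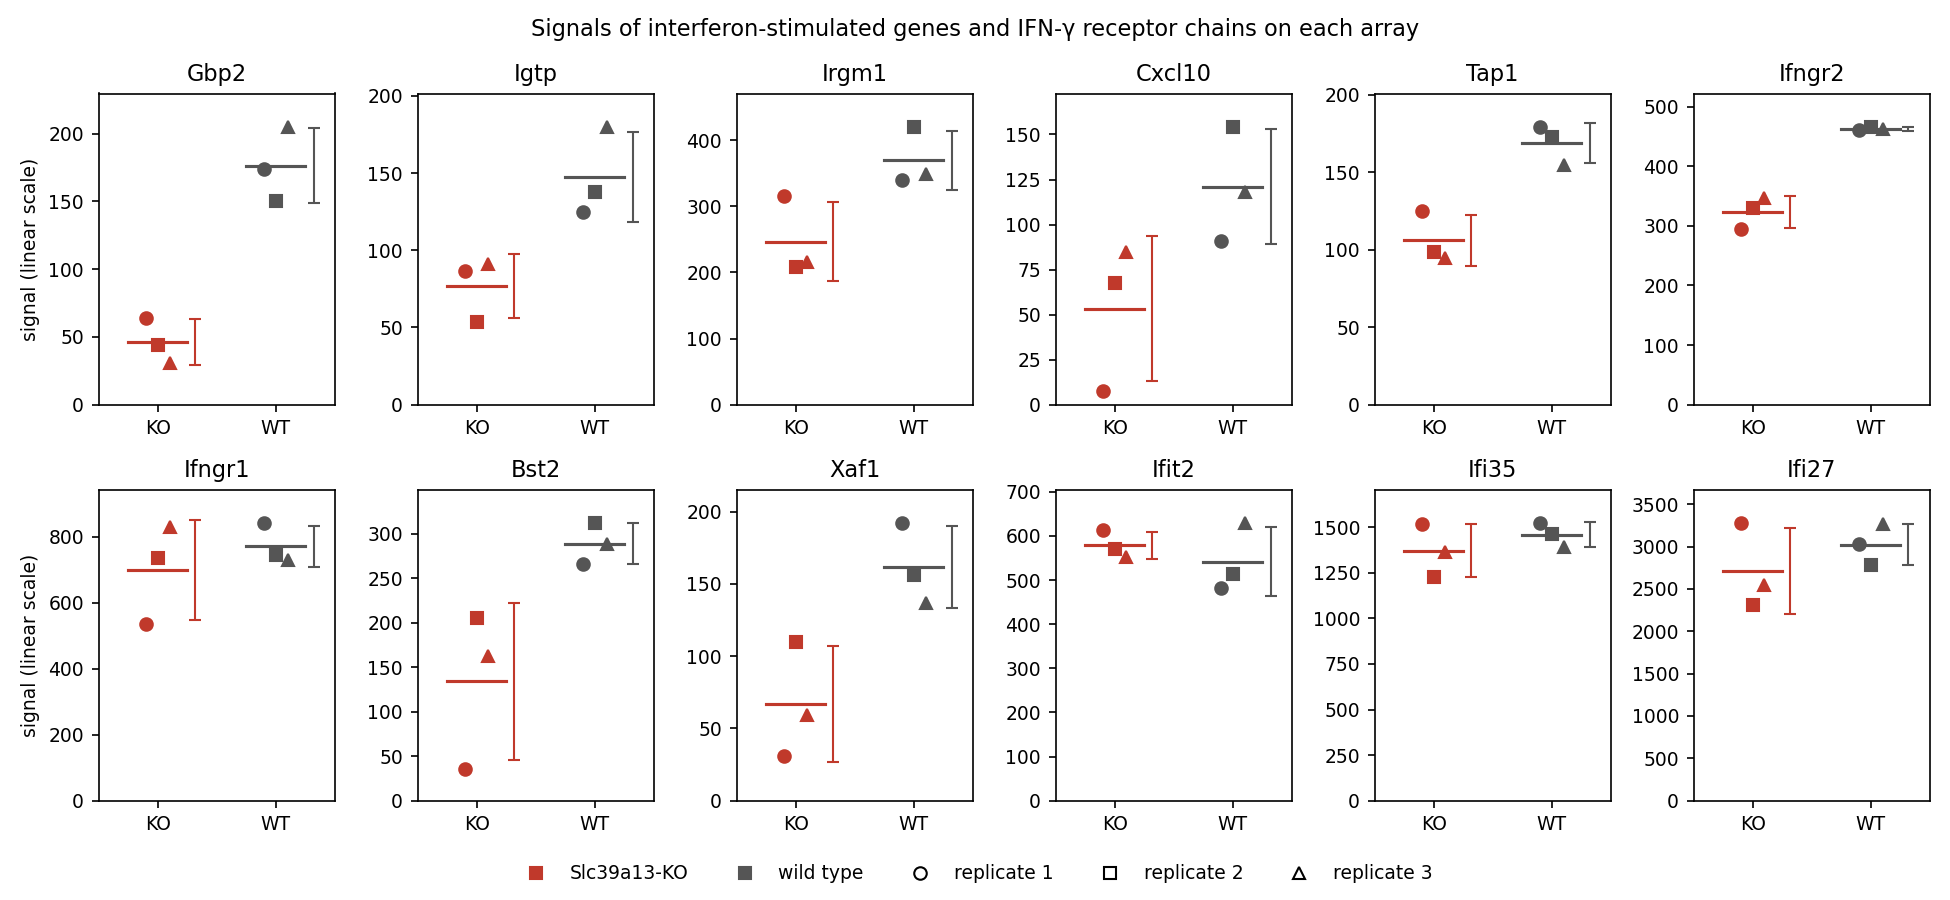
Signals (linear scale, vertical axes starting at 0) of 12 members on the 3 KO arrays (left, red) and the 3 wild-type arrays (right, grey) of each panel, with the group mean as a line and its SD as a bar. Gbp2, Igtp, Irgm1, Cxcl10, Tap1, Ifngr2, Bst2 and Xaf1 do not overlap between groups, while Ifngr1, Ifit2, Ifi35 and Ifi27 do.

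No type I gene passed the test in either direction (limma). At an unadjusted p under 0.05, 2 of 14 tested genes were lower and 1 was higher, where 12.4% and 12.8% of all genes were. Of the signal transducers, Stat2 had a difference of -0.48, Irf9, its partner in the ISRE-binding complex, 0.20 and Irf7, a factor that amplifies type I interferon production, 0.11, and all 3 overlapped between the groups. The RNA sensors Ifih1 and Dhx58 gave -0.16 and 0.35 and overlapped too. Trim25, a ubiquitin ligase that acts with the sensor RIG-I, had signals of 908, 592 and 699 in KO cells and 530, 554 and 611 in wild-type cells. KO replicate 2 lay inside the wild-type range, and the difference was 0.35 (unadjusted p = 0.0447, adjusted p = 0.186). Its other probe sets gave 0.21 and -0.41, so its probe sets differ in sign.

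The antiviral effectors of the Ifit, Oas and viperin groups did not pass the test and overlapped between the groups. Ifit2, which binds foreign RNA and slows translation, had signals of 613, 570 and 553 in KO cells and 483, 513 and 630 in wild-type cells. Ifit3, a partner of the other Ifit proteins, had signals of 104, 118 and 115 in KO cells and 102, 114 and 96.6 in wild-type cells. For both the difference was 0.10, with 95% intervals of -0.19 to 0.39 for Ifit2 and -0.49 to 0.69 for Ifit3. Rsad2, the enzyme viperin, and Oas1a, a sensor of double-stranded RNA, varied widely within each group and gave -0.21 and -0.12. Rsad2 had a further tested probe set with a difference of 0.43.

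The brightest type I members were Ifi27, a mitochondrial protein, and Ifi35. Ifi27 had signals of 3281, 2315 and 2544 in KO cells and 3028, 2778 and 3266 in wild-type cells. Ifi35 had signals of 1519, 1229 and 1362 in KO cells and 1524, 1463 and 1392 in wild-type cells. In both, KO replicate 1 lay within or just above the wild-type range and the other KO arrays below it, and the differences were -0.17 (95% interval -0.45 to 0.11) and -0.10 (95% interval -0.31 to 0.12). Another probe set of each gave a positive difference, of 0.12 for Ifi27 and 0.26 for Ifi35, and the third probe set of Ifi35 gave -0.14.

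Bst2 and Xaf1 were the type I members in which all KO signals lay below the wild-type signals. Bst2, or tetherin, holds budding virus at the cell surface, and had signals of 35.2, 205 and 162 in KO cells and 266, 312 and 288 in wild-type cells. The wild-type arrays were tight and KO replicate 1 was far below the other KO arrays. The difference was -1.35 (SE 0.49, adjusted p = 0.119), and -0.64 without KO replicate 1 (adjusted p = 0.0610). Xaf1, a protein that promotes apoptosis, had signals of 30.6, 110 and 59.5 in KO cells and 192, 156 and 136 in wild-type cells. The difference was -1.32 (SE 0.41, adjusted p = 0.0762), and it passed only without KO replicate 2 (-1.72, adjusted p = 0.0325). Its other tested probe set had signals of 112, 56.8 and 79.6 in KO cells and 78.0, 14.2 and 31.4 in wild-type cells, which overlapped in the opposite direction with a difference of 1.06 (adjusted p = 0.296 over all probe sets).

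**Figure D3:**
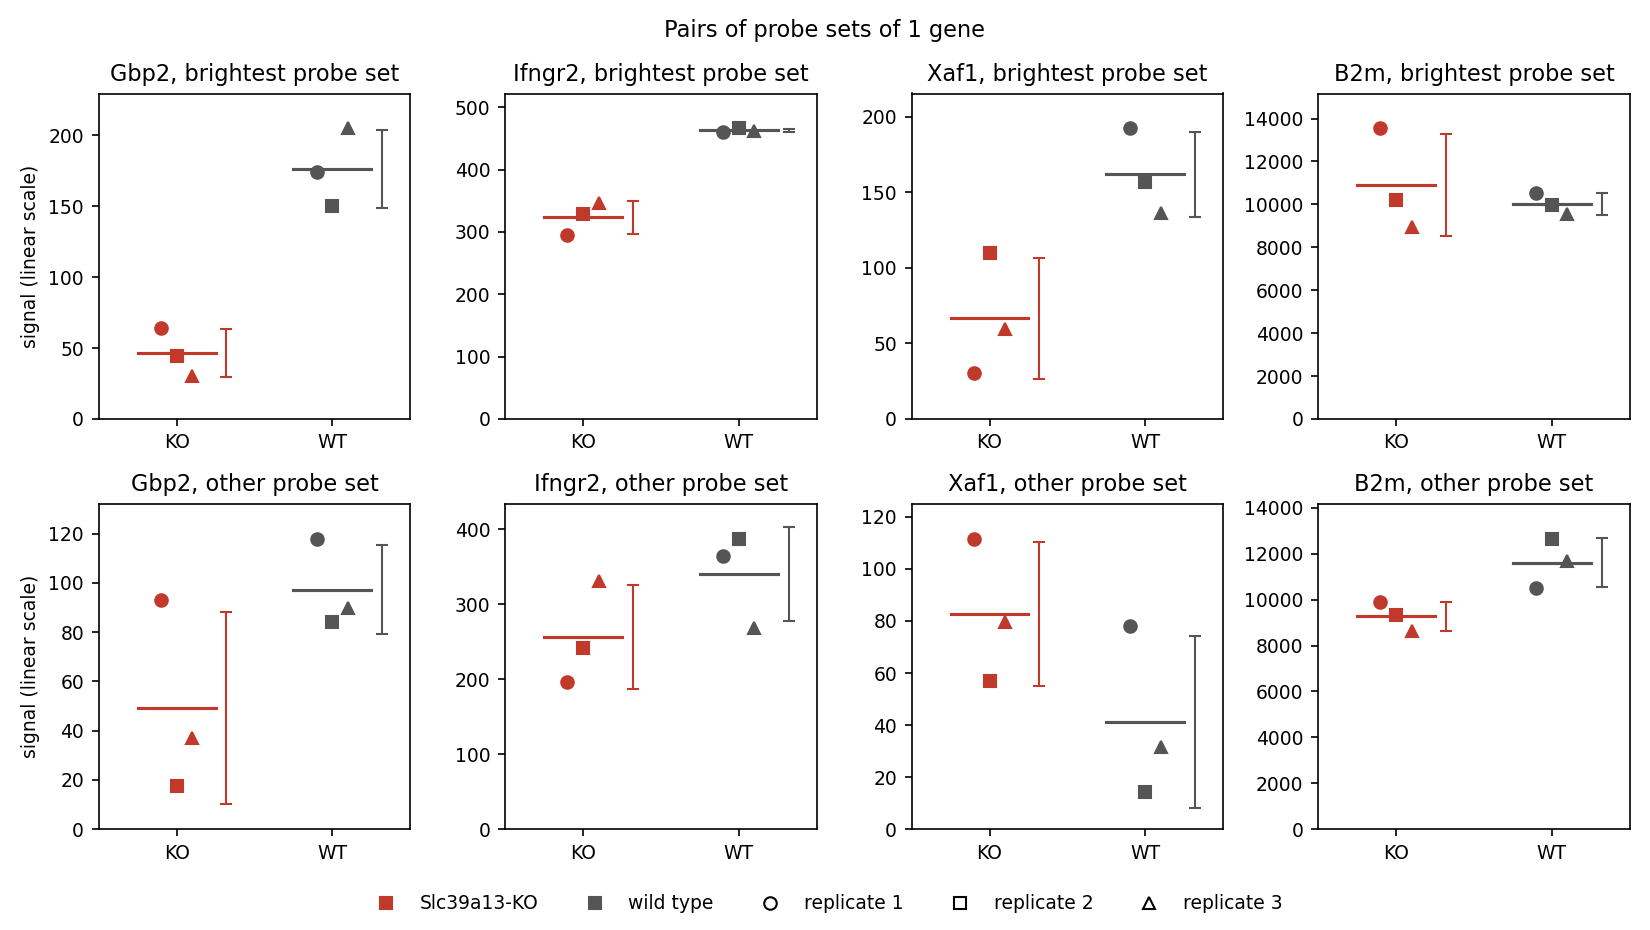
Signals (linear scale, vertical axes starting at 0) of the brightest (top) and another tested probe set (bottom) of 4 members on the KO arrays (left, red) and wild-type arrays (right, grey), with group means and SD. For Gbp2 and Ifngr2 both differences are negative (-1.80 and -1.09, -0.51 and -0.41), while for Xaf1 (-1.32 and 1.06) and B2m (0.10 and -0.32) the signs differ.

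The 6 type I genes under the filter were dim by their mean log2 values and overlapped between the groups. All but Oasl2 had signals above the filter level on some arrays, up to 138 for Usp18 on KO replicate 1. Oasl2, a relative of the Oas sensors, had signals of 13.1, 6.30 and 5.91 in KO cells and 44.0, 10.1 and 43.0 in wild-type cells. The differences ran from -1.17 for Oasl2 and -0.79 for Parp14 to 0.37 for Mx2, with Ifit1, Mx1 and Usp18 between -0.16 and -0.07. Mx1 and Mx2, GTPases that block viral replication, and Usp18, which removes Isg15 and dampens the type I receptor, are among the genes most responsive to type I interferon, and their mean log2 values were under the filter level.

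The classes were also followed from array to array. The median deviation of the IFN-γ genes from their 6-array means was 0.06, -0.45 and -0.26 log2 units on the KO arrays and 0.21, 0.36 and 0.21 on the wild-type arrays. For the type I genes it was 0.38, -0.19 and -0.12 on the KO arrays and 0.21, -0.07 and 0.09 on the wild-type arrays. The IFN-γ medians did not overlap between the groups, and KO replicate 1 was the highest KO array in both classes and the highest of all 6 arrays for the type I genes. KO replicate 1 was also the highest over all genes measured, at 0.07, with the other arrays between -0.01 and 0.01. These medians are a description of the arrays and were not tested.

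**Figure D4:**
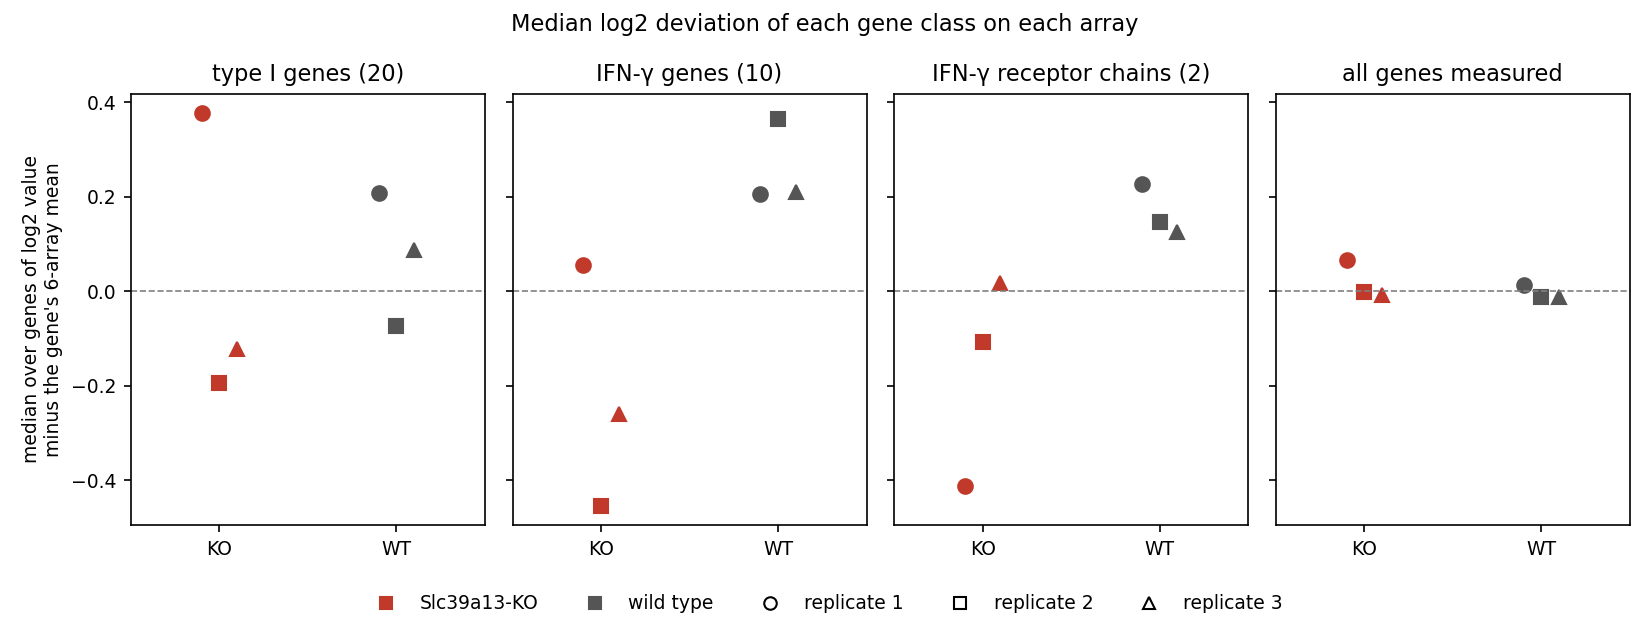
Median over the genes of each class of the log2 value minus the gene's 6-array mean (vertical axis), on the KO arrays (red) and wild-type arrays (grey), with symbols for the replicates. The IFN-γ genes lie at -0.45 to 0.06 on the KO arrays and 0.21 to 0.36 on the wild-type arrays, whereas the type I genes overlap.

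Other genes of the pathway were counted from a list of 86, of which 79 were measured and 59 tested. Of these, 0 rose and 7 fell, where 4.64% and 4.68% of all tested genes did. In 19 of the 59 all KO signals lay below all wild-type signals and in 4 above them, against 14.9% and 16.0% of all tested genes. The 19 included 10 of 25 tested type I targets and 3 of 11 tested IFN-γ targets. The larger share was thus in the type I class here, unlike among the members. At an unadjusted p under 0.05, 17 were lower and 1 was higher, where 12.4% and 12.8% of all tested genes were. The ligands Ifnb1, Ifna2, Ifna4 and Ifng were all under the filter, with mean signals of 49.4 or less over the 6 arrays. None of 6 tested receptor chains and kinases passed (limma), and 1 was lower at an unadjusted p under 0.05. Il10rb, a chain of the lambda interferon and IL-10 receptors, came closest, with signals of 565, 560 and 615 in KO cells and 762, 795 and 710 in wild-type cells (-0.38, adjusted p = 0.0505). Jak1 followed with -0.13 (adjusted p = 0.292). The chains Ifnar1 and Ifnar2 differed by 0.12 and -0.03.

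Of 5 tested transcription factors none passed, and Irf1, a factor induced by IFN-γ, had the lowest p, with signals of 612, 594 and 647 in KO cells and 742, 792 and 778 in wild-type cells (-0.32, adjusted p = 0.0763). Stat3 followed with 0.26 (adjusted p = 0.336). None of the 4 inhibitors passed, among them Socs1 (-0.39, adjusted p = 0.543) and Socs3 (0.22, adjusted p = 0.373). Of 8 tested sensors and adaptors Tlr4, the receptor of bacterial lipopolysaccharide, fell by 0.51 (adjusted p = 0.0444). Among 25 tested type I targets 4 fell, where 4.68% of all tested genes did. These were Samd9l, an antiviral factor that restricts translation (-0.88, adjusted p = 0.0213), Parp12, an ADP-ribosyltransferase (-0.61, adjusted p = 0.0102), Isg20, an exonuclease (-0.41, adjusted p = 0.0378), and Ifitm3, which blocks entry of viruses (-0.36, adjusted p = 0.0150). Among 11 tested IFN-γ targets 2 fell against the same share of all tested genes, the MHC class I heavy chain H2-D1 (-0.44, adjusted p = 0.0115) and the proteasome activator subunit Psme1 (-0.39, adjusted p = 0.0308). H2-K1, another class I heavy chain, lay higher on every KO array without passing (0.14, adjusted p = 0.286). Both heavy chains were read on probe sets of a type that may cross-hybridize with related genes. H2-D1 was not among the genes that fell when such probe sets were left out, nor when the probe sets of each gene were averaged. The median difference was -0.20 for the type I targets and -0.41 for the IFN-γ targets. The count of 7 was 9 without KO replicate 1, 4 without KO replicate 2, and 5, with 1 gene higher, without KO replicate 3. It was 2, 0 and 0 without wild-type replicates 1, 2 and 3. With no filter and with the probe sets of each gene averaged it was 6, and 5 without probe sets of the types that may cross-hybridize. It was 8, with 1 gene higher, under the filter at the 60th percentile, 8 under quantile normalization, 1 with arrays centred on their medians and without limma's trend, and 0 with the methods' t-test.

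Markers of other cells moved between the groups as well. All 6 mesothelial markers lay lower on every KO array, and 5 fell, with a summed signal given above. Fibroblast markers summed to between 36355 and 45420 on the KO arrays and between 26805 and 33186 on the wild-type arrays, with Col1a1, Col3a1 and Postn higher and Pdgfra and Thy1 lower (all 5 tested markers past the threshold, limma). Macrophage markers summed to between 911 and 1360 on the KO arrays and between 769 and 985 on the wild-type arrays, which overlapped. Of the 12, 7 were tested, 0 rose and Cd14 fell, with signals of 32.6, 86.8 and 126 in KO cells and 282, 223 and 187 in wild-type cells. The difference was positive in 9 of the 12. C1qb had signals of 204, 88.0 and 57.7 in KO cells and 36.5, 18.7 and 38.0 in wild-type cells (1.54, adjusted p = 0.105), and Lyz2 differed by 1.05 (adjusted p = 0.103). Markers of T and NK cells, the usual source of IFN-γ, summed to between 203 and 297 on the KO arrays and between 271 and 322 on the wild-type arrays, and only Cd8a of the 6 reached the filter level. Cd8a had signals of 75.4, 80.7 and 122 in KO cells and 167, 179 and 205 in wild-type cells (-0.96, adjusted p = 0.0527, limma). This was read on 1 of its 5 probe sets, of a type that may cross-hybridize with related genes. The other 5 markers had positive differences and mean signals between 12.9 (Cd3e) and 45.3 (Gzmb). Whether T or NK cells were present was not tested. No marker was listed at 0. In these bulk samples fewer cells of a type and less RNA per cell cannot be told apart. The part of these cells in the lower signals of Gbp2, Ifngr2 and the other pathway genes was not tested.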

How the data were processed

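Gene expression was measured on 6 single-colour Affymetrix mouse genome arrays, 3 of Slc39a13-KO and 3 of wild-type primary chondrocytes. The deposited values are linear intensity values per probe set. Per the labels they were made with MAS5 (version not stated), while the study's methods name gcRMA, and each array has the same trimmed mean, so they were used as scaled by the authors. The number of arrays limits the precision. Of 45101 probe sets, 34945 carried 1 gene symbol and were kept. Values were taken as log2(signal + 7.96), the 10th percentile of all signals, and only probe sets whose mean was at or above the 40th percentile (5.80) entered the tests. KO and wild-type arrays were set against each other in R 4.3.3 with limma 3.58.1 (lmFit, eBayes with a trend, no covariates), with Benjamini-Hochberg adjustment over 12715 genes and a threshold of 0.05. A gene's other probe sets were adjusted over 23294 probe sets. The fit was tested on simulated data. The members, lists and tests were chosen with earlier results of these data known, and the lists of other pathway genes and markers are from general knowledge. Values on every array are given for members that passed or did not overlap, for the brightest type I and IFN-γ members and for the receptor chains, and in each class of other pathway genes up to 4 that passed, or the 2 with the lowest p, are named. Gbp3, Trim25, Ifit2, Ifit3, Oasl2, Ifnar1, Ifnar2, H2-K1 and Cd14 were added to these after their values were seen. Filter, pseudocount, normalization, choice of probe set, replicate block, test and single arrays were varied.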

Additional observations from a re-analysis of the deposited data

How the results depend on the processing

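No member rose under any alternative run. The number of members that fell was 2, and 3 under quantile normalization (B2m, Gbp2 and Ifngr2), 1 with no filter on dim probe sets (Gbp2), with the filter at the 60th percentile (Ifngr2, with 10 members tested), with arrays centred on their medians (Gbp2) and without limma's trend (Gbp2), and 0 where the probe sets of each gene were averaged and with the methods' t-test after adjustment. Leaving out 1 array at a time gave 0 to 3. B2m, Gbp2 and Irgm1 fell without KO replicate 1, Gbp2 and Xaf1 without KO replicate 2, Gbp2 and Ifngr2 without KO replicate 3, and none without any 1 of the wild-type arrays. B2m turned round to -0.32 under quantile normalization and to -0.37 without KO replicate 1, where its other probe set was the brighter, and lay between -0.37 and 0.14 with 1 array left out. Arrays of the same replicate number did not deviate together (correlations of 0.04, 0.01 and -0.07). With 3 arrays in each group this cannot exclude that the numbers pair them, and the labels do not say. With the replicate number as a block 1 member fell (Gbp2), 2 other pathway genes fell (H2-D1 and Parp12), Ifngr2 had an adjusted p of 0.0818, and 344 genes in all rose and 354 fell. Over all genes 590 rose and 595 fell, and 106 and 230 with median centring, 121 and 144 without the trend, 41 and 44 with the t-test, and 225 to 778 and 196 to 815 with 1 array left out. The median difference of the type I members lay between -0.36 and 0.02 and that of the IFN-γ members between -0.64 and -0.42. For the 24 tested members, 396 of 418 values kept their side of the threshold and any called direction. That tally includes the members with no call on either side. Of the 2 called genes, Gbp2 passed in 12 of 18 alternatives and Ifngr2 in 7 of 19. Dim signals limit Gbp2, Cxcl10 and Psmb8 in KO cells and the 8 untested members. The causes of these changes were not tested, other than the change of probe set for B2m.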
